A study of Mus musculus with 12 samples.

Results

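The regions described here were places in the mouse genome that gave an ATAC-seq peak in every Th2 library and in no Th1 library and no wild-type naive library, so that they were called open after Th2 polarization alone. ATAC-seq marks accessible DNA by the insertions of a transposase, and a peak is a stretch where insertions pile up over the local background. Overlapping peaks of all 12 lists on chromosomes 1 to 19 and X, sharing at least 1 bp, were merged into 110642 regions. Of these, 36107 had a peak in all 4 Th2 libraries. From these, 2302 regions (6.38%) had no peak in any of the 4 Th1 libraries and in neither of the 2 wild-type naive libraries, and they are called the Th2-only newly open regions. The rest of the regions open in all 4 Th2 libraries fell into 12996 (36.0%) with a Th1 peak, 394 (1.09%) with a wild-type naive peak and 20415 (56.5%) with both. Here and below, a Th1 or wild-type naive peak means a peak in at least 1 library of that kind. Because the Th2, Th1 and wild-type naive lists chose the regions, their values in those lists are a description.

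All cells were CD4+ T cells of the spleen, in groups of 2 libraries. Th2 knockout and Th2 wild-type cells had been polarized for 6 days with IL-4 at 50 ng/mL and an antibody against interferon gamma. Th1 knockout and Th1 wild-type cells had been polarized for 6 days with IL-12 at 10 ng/mL and IL-2 at 1 ng/mL. Both polarized kinds were stimulated through CD3 and CD28. Naive knockout and naive wild-type cells were not polarized, and the 2 naive libraries of a genotype were technical replicates of 1 biological sample. Knockout cells came from C57BL/6J-Ets1-SE-KO mice, which lack a super-enhancer of Ets1, and wild-type cells from C57BL/6J mice. The labels give neither age nor sex, nor how the deletion was made. The titles number the polarized libraries of a group as biological replicates 1 and 2, without saying whether each was a separate animal, culture or pool.

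Naive CD4+ T cells become Th1 or Th2 cells under the cytokines they meet while being activated. IL-4 acts through STAT6 and raises GATA3, which together open the genes of the type 2 cytokines IL-4, IL-5 and IL-13, while T-bet drives interferon gamma in Th1 cells. Regions far from gene starts that open in this way often hold enhancers, and AP-1 factors of the activated cell bind many of them. ETS1, the factor whose super-enhancer was deleted, binds GGAA-type sites in T cells.

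The Th2 lists held 56357 and 52561 peaks in knockout and 54160 and 51600 peaks in wild type. The Th1 lists held 46006 and 44372 peaks in knockout and 44223 and 34746 peaks in wild type. The naive lists held 41075 and 43823 peaks in knockout and 52571 and 56195 peaks in wild type. The number of reads behind a list is unknown, so a missing peak says only that none was called. The 2 Th2 knockout libraries are named Th1 in their titles, as second technical replicates, and Th2 in their source names, and they were taken as Th2. Marker genes were read by a peak within 1 kb of the start, and they did not all follow the labels. The start of Ifng, the interferon gamma gene, had a peak in none of the 4 Th2 lists and in all 4 Th1 and all 4 naive lists. The start of Tbx21, which encodes T-bet, had one in Th2 knockout replicate 1 and in no other Th2 list, in both Th1 knockout lists, in Th1 wild-type replicate 1, in naive knockout replicate 2 and in naive wild-type replicate 2. The start of Cxcr3, a chemokine receptor gene of Th1 cells, had one in Th2 wild-type replicate 2, in no Th1 list, in both naive knockout lists and in naive wild-type replicate 1. The starts of the Th1 genes Il12rb2 and Il18rap had a peak in all 12 libraries. The start of Il13, a type 2 cytokine gene, had one in Th2 knockout replicate 1 and in no other library. A start of Il4 had one in all 4 Th2 lists, both Th1 knockout lists, Th1 wild-type replicate 1 and no naive list. For the Th2 gene Pparg it was all 4 Th2 lists and Th1 knockout replicate 1. For the Th2 gene Il1rl1 it was replicate 1 of Th2 knockout and of Th2 wild type. Gata3 and the Th2 gene Ccr8 had one in all 12 libraries. The peak at the start of Il5 is itself one of the chosen regions, so it does not bear on the labels. Of the naive T cell genes, Dapl1 had one in all 4 naive lists and no other, and Lef1 had one in all 12 libraries. Tcf7 had one in all Th2 lists but wild-type replicate 1, all Th1 lists but wild-type replicate 2, and naive wild-type replicate 1. The starts of the T cell genes Cd3e and Lck had a peak in all 12 libraries, and that of Cd3d in all 4 Th2 lists, in no Th1 list and in all 4 naive lists. None of the 4 mast cell and basophil markers examined had a peak at its start in any library. Chosen without both Th2 knockout libraries, the same rule gave 3750 regions, which held 2291 of the 2302. Leaving libraries out loosens the rule, so nearly all regions had to stay, and this does not bear on the labels. Of these 3750, 0.4% had a peak in both naive knockout lists and 2.65% lay within 1 kb of a gene start, and 3013 protein-coding genes had one in or near them.

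Only 32 genes, coding or not, had a 300-base promoter window that a Th2-only newly open region touched. The sequences shown are the 250 bases before the start of the 4 protein-coding genes among them whose region lay highest in the Th2 lists, counting genes with at least 200 bases of their window covered. They are RefSeq sequences of GRCm38.p6, 5′ to 3′ on the gene's strand. Capitals mark 3 motifs, each searched on both strands. The GATA motif was the letters GATA with A or T before them and A or G after them. The AP-1 motif was TGAGTCA, also with C for the middle G. The STAT6 motif was TTC followed by any 4 bases and then GAA. Cd200r3 encodes a receptor of the CD200 receptor family, and its promoter is at chr16:44943428-44943677 on the plus strand. Iqcf1 encodes an IQ-motif protein, and its promoter is at chr9:106499717-106499966 on the plus strand. Mgat4f belongs to a family of N-acetylglucosaminyltransferases, and its promoter is at chr1:134385690-134385939 on the plus strand. C3ar1 encodes the receptor of the complement fragment C3a, and its promoter is at chr6:122856158-122856407 on the minus strand.
Cd200r3: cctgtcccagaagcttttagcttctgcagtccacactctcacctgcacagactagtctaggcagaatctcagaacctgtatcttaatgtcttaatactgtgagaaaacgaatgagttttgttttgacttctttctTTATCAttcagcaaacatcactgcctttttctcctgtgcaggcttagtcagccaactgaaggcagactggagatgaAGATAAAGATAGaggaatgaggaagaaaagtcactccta
Iqcf1: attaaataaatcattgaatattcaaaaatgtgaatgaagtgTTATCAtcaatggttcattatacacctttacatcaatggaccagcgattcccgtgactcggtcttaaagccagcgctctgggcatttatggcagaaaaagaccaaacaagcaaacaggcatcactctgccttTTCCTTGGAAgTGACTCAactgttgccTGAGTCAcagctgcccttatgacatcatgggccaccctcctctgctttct
Mgat4f: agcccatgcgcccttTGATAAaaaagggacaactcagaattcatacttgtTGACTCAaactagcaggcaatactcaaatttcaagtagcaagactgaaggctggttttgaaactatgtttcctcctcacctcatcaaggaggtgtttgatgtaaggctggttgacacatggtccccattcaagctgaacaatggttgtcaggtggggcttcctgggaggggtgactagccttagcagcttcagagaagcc
C3ar1: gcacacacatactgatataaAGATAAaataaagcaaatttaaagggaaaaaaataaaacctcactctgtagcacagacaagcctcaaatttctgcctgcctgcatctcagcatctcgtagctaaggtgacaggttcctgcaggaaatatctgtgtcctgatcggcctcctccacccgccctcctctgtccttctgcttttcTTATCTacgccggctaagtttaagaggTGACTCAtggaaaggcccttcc

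The Cd200r3 promoter held 3 GATA motifs, 2 of them side by side close to the start, and no AP-1 or STAT6 motif. The Iqcf1 promoter held 1 GATA motif, 2 AP-1 motifs and 1 STAT6 motif, and the STAT6 motif lay just before the first AP-1 motif. The Mgat4f promoter held 1 GATA and 1 AP-1 motif, and the C3ar1 promoter held 2 GATA motifs and 1 AP-1 motif. The region over the Cd200r3 start, chr16:44943371-44943929, stood at percentiles 86.0 and 83.9 in Th2 knockout and 92.2 and 79.2 in Th2 wild type, where the percentile ranks a peak by its q-value among all peaks of its own list and 100 is the strongest. It was a strong peak in all 4 lists, and the genotypes overlapped. The region over the C3ar1 start, chr6:122855877-122856470, stood at percentiles 27.4 and 47.9 in Th2 knockout and 52.5 and 62.7 in Th2 wild type, so both knockout values were below both wild-type values. The regions over the other 2 starts overlapped between genotypes, at 69.4 and 86.9 in Th2 knockout and 66.3 and 71.9 in Th2 wild type for Iqcf1, and at 67.6 and 35.2 in Th2 knockout and 63.5 and 61.5 in Th2 wild type for Mgat4f.

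The Th2-only newly open regions were mostly middle-ranking peaks. Their median percentile was 47.3 and 43.9 in the Th2 knockout lists and 44.2 and 43.2 in the Th2 wild-type lists. Over all 36107 regions open in Th2, the medians in the same libraries were 67.2 and 64.8 in knockout and 65.8 and 64.3 in wild type. The newly open regions thus ranked lower in each of the 4 lists. The 307 Th2-only regions already open in both wild-type naive libraries ranked lower still. Their medians were 36.2 and 34.2 in Th2 knockout and 36.4 and 33.9 in Th2 wild type. A low rank was thus not particular to newly open regions. Their median fold enrichment over local background, as the authors' peak caller gave it, was 4.00 and 3.97 in Th2 knockout and 3.91 and 3.98 in Th2 wild type. In bulk libraries, a region open in few cells and one weakly open in many cannot be told apart. The newly open regions were a median 497 bp wide (234 to 1467 bp), against 684 bp for the 6763 regions newly open in both Th1 and Th2 cells, 978 bp for the 14561 regions open in all 12 libraries, 499 bp for the 332 regions newly open in Th1 alone and 450 bp for all regions.

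**Figure D1:**
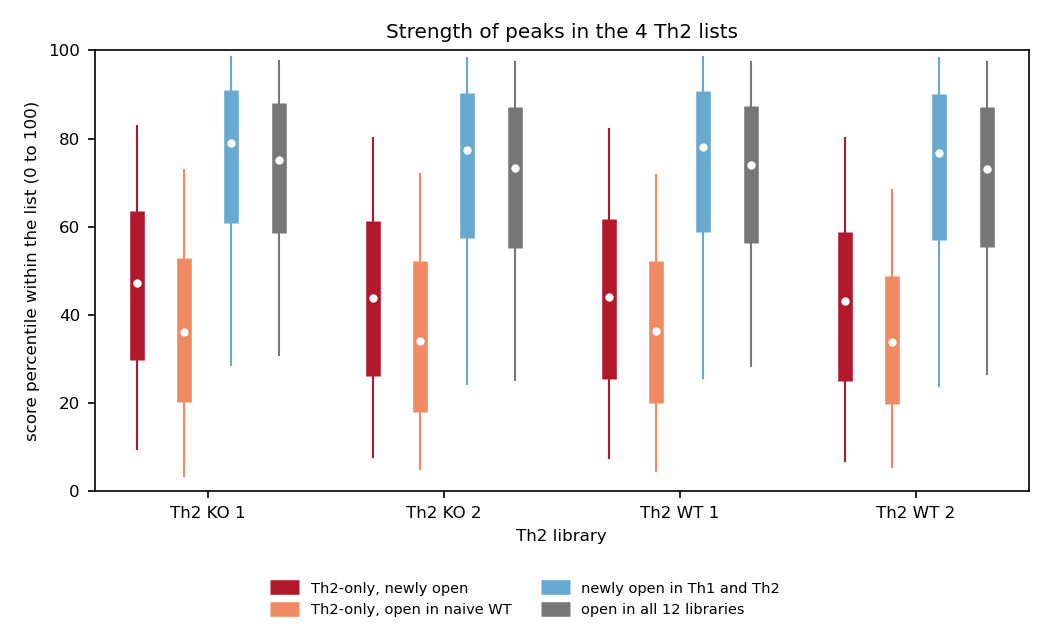
Score percentile (y axis, 0 to 100, within each list) of 4 sets of regions in each of the 4 Th2 libraries (x axis). White points are medians, thick bars the middle 50% and thin lines the 5th to 95th percentile of the regions. The Th2-only newly open regions, in red, have medians of 43.2 to 47.3. They lie below the regions newly open in both Th1 and Th2 cells in every library. Th2-only regions already open in both wild-type naive libraries are lower still, with medians of 33.9 to 36.4.

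Among themselves the regions ranged widely. The mean percentile of a region over the 4 Th2 lists ran from 5.21 to 94.7 with quartiles of 31.7, 42.8 and 56.0, and the median standard deviation of a region over its 4 libraries was 15.2 percentile points. In all 4 lists, 1057 regions (45.9%) stood above percentile 25, 325 (14.1%) above percentile 50 and 54 (2.35%) above percentile 75. The matching shares of all regions open in Th2 were 74.3%, 48.7% and 22.5%. Those 54 regions make up the firm end of the set, and no region was above percentile 90 in all 4 lists.

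Regions just outside the rule were numerous. A further 2065 regions had a peak in 3 of the 4 Th2 libraries and met the rest of the rule, with a median percentile of 27.5 in the lists that had the peak. Another 1813 regions met the rule except for a peak in a single Th1 library, most often Th1 knockout replicate 1, with 806 regions. Their Th2 peaks had a median percentile of 46.6 and the single Th1 peak one of 23.5. For 87 regions the single extra peak was in a wild-type naive library, at a median percentile of 13.2. The rule also depends on list length, which differed between libraries: with the 34746 strongest peaks of every list, 1144 regions met it, and these held 691 (30.02%) of the 2302. A region is thus called Th2-only at the authors' threshold, and a weak Th1 or naive peak under that threshold is not seen.

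The naive knockout libraries were not part of the rule. A peak was present there for 15 regions (0.652%) in replicate 1 and 21 regions (0.912%) in replicate 2, and for 8 regions (0.348%, 95% Wilson interval 0.176 to 0.684%, counting error only) in both. Of the 15298 regions open in all 4 Th2 libraries without a wild-type naive peak, 259 (1.69%) had a peak in both naive knockout lists, and of all 52619 regions without a wild-type naive peak 3019 (5.74%) had one. For the 6763 regions newly open in both Th1 and Th2 cells the share was 161 (2.38%), and for the 332 newly open in Th1 alone it was 13 (3.92%). The Th2-only newly open regions thus had the lowest share of these sets. Among regions of like Th2 strength, with a mean Th2 percentile of 25 to 50, 4 of 1198 newly open regions (0.334%) had both naive knockout peaks. Of those open in Th2 with a Th1 peak and without a wild-type naive peak, 85 of 3402 (2.50%) had both. The latter were chosen for a Th1 peak and the newly open ones for none, and only Th2 strength was alike. The rule thus favours a lower share of naive knockout peaks, and the comparison cannot show more. The smallest p that exact permutation allows for groups of 2 libraries is 0.3333, so no test is given.

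**Figure D2:**
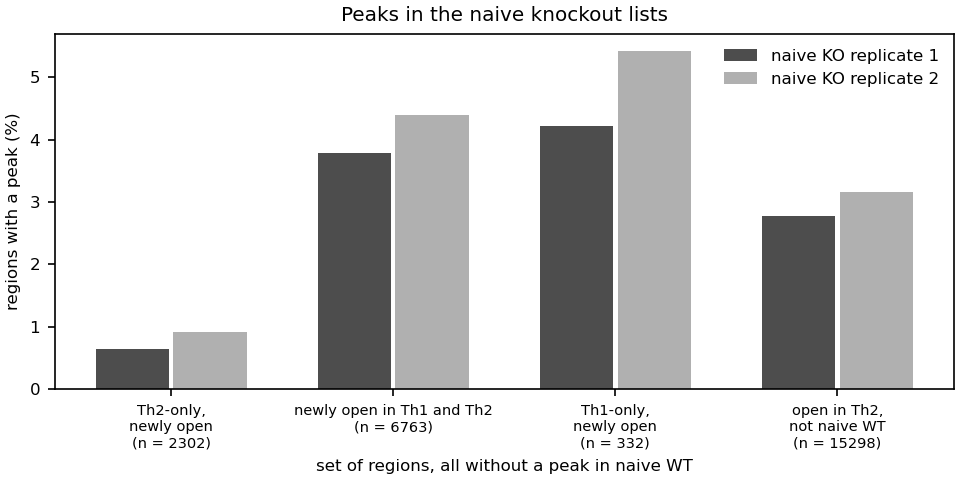
Share of regions with a peak in each naive knockout library (y axis, percent) for 4 sets of regions that have no wild-type naive peak (x axis, with the number of regions). The Th2-only newly open regions reach 0.652% and 0.912%, below 2.78% and 3.16% for all regions open in Th2 without a wild-type naive peak.

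The 8 regions with both naive knockout peaks lay on several chromosomes. The strongest in naive knockout was chr1:62760147-62760550 in Nrp2, a semaphorin co-receptor gene, at percentiles 60.0 and 56.6 there, with 30.5 and 82.1 in Th2 knockout and 57.6 and 49.6 in Th2 wild type. Next was chr5:146703667-146704266, 30.5 kb from Usp12, a deubiquitinase gene, at 60.4 and 49.2 in naive knockout, with 23.1 and 15.8 in Th2 knockout and 23.5 and 41.1 in Th2 wild type. The third, chr2:155404516-155405286 in the coactivator gene Ncoa6, stood at 43.1 and 61.3 in naive knockout, with 48.7 and 75.2 in Th2 knockout and 76.1 and 70.3 in Th2 wild type. Only these 3 were above percentile 40 in both naive knockout lists. The fourth and the next, chr16:90999883-91000354 in Synj1 and chr2:90547115-90547618 in the phosphatase gene Ptprj, reached 28.4 and 17.7, and 21.8 and 13.6, in naive knockout. The naive knockout lists also differed from the naive wild-type lists in markers of other cells: both had peaks at the starts of the B cell genes Cd79a and Pax5 and of the haemoglobin genes Hbb-bt and Hbb-bs, and neither wild-type naive list did. Over the whole lists, 3 of 3 B cell markers with a known start had a peak in both naive knockout libraries against 1 of 3 in both naive wild-type libraries, and 2 and 3 of 3 red cell markers in naive knockout against 0 in both naive wild-type libraries. The part of these cells in the naive knockout peaks was not tested.

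Between Th2 knockout and Th2 wild-type cells the regions did not stand apart from the other regions open in Th2. Both knockout percentiles were above both wild-type ones in 446 regions (19.4%) and below them in 347 (15.1%), while 1509 overlapped. The background over all 36107 regions open in Th2 was 18.7% above and 15.7% below, so both shares lay near it. The median difference, knockout minus wild type, was 2.41 percentile points for the newly open regions and 0.488 for all regions open in Th2, and the library medians of the 2 genotypes overlapped. Leaving out 1 Th2 library, which leaves 1 library against 2, raised the shares to between 34.5% and 37.8% above and between 29.1% and 33.3% below, with the background rising alike to between 33.5% and 37.4% and between 29.2% and 34.6%.

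**Figure D3:**
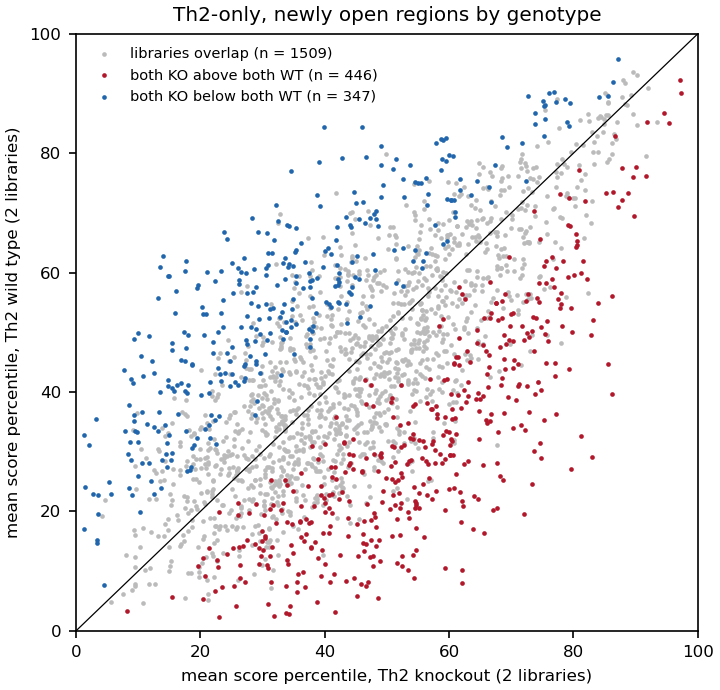
Mean score percentile of each of the 2302 Th2-only newly open regions in Th2 knockout (x axis, 2 libraries) and Th2 wild type (y axis, 2 libraries), with the line of equal values. Red points are the 446 regions with both knockout libraries above both wild-type ones, blue points the 347 with both below, and grey points the 1509 whose libraries overlap.

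Single regions at the ends of this spread are given as values. The largest differences toward knockout without overlap included chr11:118332787-118333186 in Timp2, an inhibitor of metalloproteinases, with 76.1 and 89.9 in Th2 knockout against 29.2 and 29.1 in Th2 wild type. Another was chr1:20754450-20754847, 19.95 kb from Il17a, the Th17 cytokine gene, with 73.1 and 86.1 in Th2 knockout against 17.5 and 36.7 in Th2 wild type. Both were clear peaks in knockout and weak ones in wild type. Toward wild type, chr12:91894049-91894483, 44.9 kb from Sel1l, had 11.4 and 16.5 in Th2 knockout against 67.2 and 58.3 in Th2 wild type. In the same direction, chr4:109391372-109391833, 2.31 kb from Ttc39a, had 51.4 and 28.4 in Th2 knockout against 81.2 and 87.5 in Th2 wild type. They were picked from 2302 regions for their differences, and no test bears on them.

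Choosing regions in 1 genotype and reading them in the other gave a view that the rule did not fix. The 5220 regions open in both Th2 knockout libraries, with no Th1 knockout or wild-type naive peak, had a peak in 72.3% and 70.4% of cases in the Th2 wild-type libraries, and in 17.8% and 7.34% in the Th1 wild-type libraries. The 6367 regions open in both Th2 wild-type libraries, with no Th1 or naive wild-type peak, had one in 82.3% and 76.1% of cases in the Th2 knockout libraries, and in 32.1% and 24.9% in the Th1 knockout libraries. In either direction most regions were open in the Th2 cells of the other genotype and a minority in its Th1 cells. The choice itself favoured a low Th1 share, since it asked for no Th1 peak in 1 genotype, and the Th1 lists were shorter. The same shares over all regions open in the choosing Th2 libraries were not computed. In the naive knockout libraries the shares were 1.42% and 1.74% for regions chosen in knockout and 1.23% and 1.49% for regions chosen in wild type.

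The Th2-only newly open regions lay away from gene starts. Of the 2219 regions outside chromosome 18, where no starts were listed, 46 (2.07%) were within 1 kb of a listed protein-coding start, 16.2% at 1 to 10 kb, 53.9% at 10 to 100 kb and 618 (27.9%) beyond 100 kb. Over all regions 11.5% were within 1 kb, and over the regions open in all 12 libraries 50.7%. Regions newly open in both Th1 and Th2 cells had 3.23% there, and those newly open in Th1 alone 1.54%. Th2-only regions already open in both wild-type naive libraries had 4.39%, so a distal position was not particular to newly open regions. The median distance was 42.7 kb, against 39.9 kb for regions newly open in both Th1 and Th2 cells and 48.5 kb for those newly open in Th1 alone. It was 30.3 kb for Th2-only regions already open in naive cells and 29.3 kb for all regions. A start was listed for 17274 of 21631 protein-coding genes, so distances are upper bounds in every set. By gene bodies, 1281 regions (55.6%) overlapped a protein-coding gene and 853 (37.1%) no annotated gene. Over all regions these shares were 60.8% and 30.6%, and over all regions open in Th2 66.2% and 25.8%. No newly open region overlapped any of the 1005 listed miRNA hairpins, but no share over all regions stands beside this. Per chromosome, the share of regions open in Th2 that were Th2-only and newly open ran from 4.85% on chromosome 8 and 4.89% on chromosome 17 to 7.98% on chromosome 14 and 8.004% on chromosome X.

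**Figure D4:**
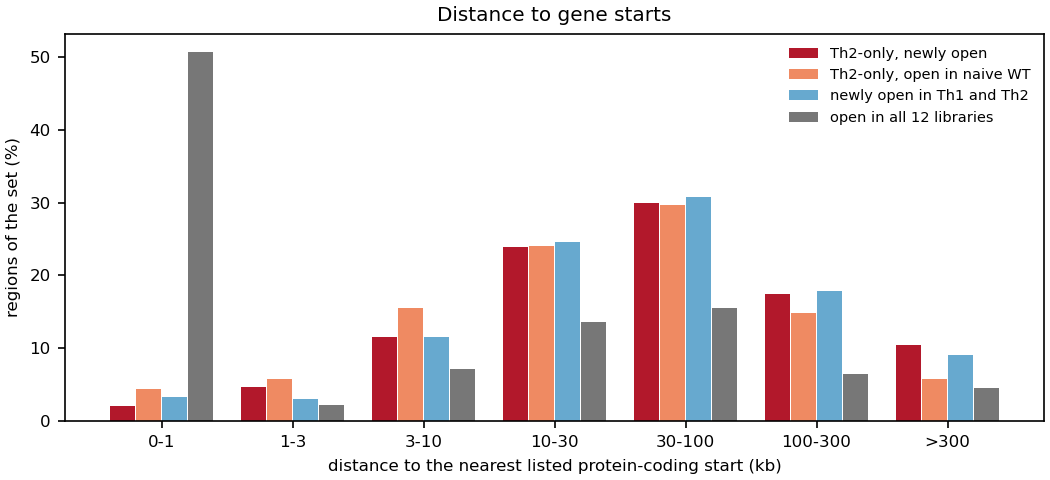
Distance from a region to the nearest listed protein-coding start (x axis, kb, in 7 bins) as the share of each set's regions (y axis, percent), without chromosome 18. The Th2-only newly open regions, in red, have 2.07% within 1 kb, against 50.7% of the regions open in all 12 libraries.

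At the type 2 cytokine genes on chromosome 11 the newly open regions were at Il5 and not at Il4 or Il13. Il5, which encodes the eosinophil growth and survival cytokine, had 2 of its 6 regions open in Th2 within its body or 20 kb on either side. The first, chr11:53719761-53720251, lay 0.543 kb upstream of the start, with percentiles 51.3 and 20.7 in Th2 knockout and 72.1 and 33.6 in Th2 wild type. The second, chr11:53732250-53732724, lay 11.5 kb from the start, with 29.1 and 12.6 in Th2 knockout and 23.3 and 31.3 in Th2 wild type. Both were weak to middling peaks whose genotypes overlapped, and neither met the rule with lists of equal length. Il4 had 4 regions open in Th2, of which 3 had a Th1 peak and 1 had Th1 and wild-type naive peaks. The 3 regions of Il13 all had a Th1 peak, in at least 1 library, and no wild-type naive peak. Rad50, which holds the locus control region of these genes, had 8, of which 6 had a Th1 peak alone and the 1 newly open in Th2 was the region next to Il5. Over the list of 8 genes in and beside this locus, 2 of 20 regions open in Th2 were Th2-only and newly open, against 6.38% over the genome.

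Of 18 genes for transcription factors of Th2 cells, 6 had a newly open region. Together they held 10 of the list's 107 regions open in Th2 (9.35%, beside 6.38% over the genome). The gene lists were chosen with earlier results of these data known. Rbpj, the DNA-binding partner of Notch, had 4 of 17, with mean percentiles of 41.1, 27.6, 47.2 and 36.9, and Rora, a nuclear receptor gene, had 2 of 15. Junb, Irf4, Batf and Pparg had 1 each; JUNB and BATF are AP-1 factors and IRF4 is their partner in activated T cells. Pparg, the nuclear receptor of lipid ligands found in Th2 cells, had 1 of 9, at chr6:115440426-115440873, with 74.5 and 74.0 in Th2 knockout and 75.5 and 7.897 in Th2 wild type. Th2 wild-type replicate 2 was low there while the other 3 libraries were alike. The other 8 regions at Pparg also lacked wild-type naive peaks and had a Th1 peak in at least 1 library. Gata3, the master regulator of Th2 cells, had none: of its 5 regions open in Th2, 1 had a Th1 peak and 4 had Th1 and wild-type naive peaks. With lists of equal length, 1 region at Rbpj and none at Pparg met the rule.

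Of 23 genes for Th2 receptors and effectors, 7 had a newly open region. These came to 10 of the list's 91 regions open in Th2 (10.99%, beside 6.38% over the genome). Il1rl1, which encodes the IL-33 receptor ST2, had 2 of 10. The region chr1:40399664-40400051 had percentiles 47.2 and 50.5 in Th2 knockout and 74.3 and 46.0 in Th2 wild type, so its genotypes overlapped, and it had a peak in naive knockout replicate 2 at percentile 16.9. The region chr1:40425338-40425877, 3.69 kb from a start, had 64.6 and 65.4 in Th2 knockout and 38.4 and 39.3 in Th2 wild type, and here both knockout values were higher. Il10, an anti-inflammatory cytokine gene, had 2 of 5. The region chr1:131029132-131029785 had 84.8 and 79.9 in Th2 knockout and 29.8 and 83.4 in Th2 wild type, with Th2 wild-type replicate 1 low, and chr1:131000286-131000796 was weak at a mean of 22.2. Il2ra, the alpha chain of the IL-2 receptor, had 2 of 10, with means of 43.8 and 39.6. Areg, which encodes the growth factor amphiregulin, had 1 of 2, at chr5:91123527-91124673, with 70.0 and 58.2 in Th2 knockout and 75.1 and 56.7 in Th2 wild type, a firm and even peak. Il9r, the IL-9 receptor gene, Cysltr1, a leukotriene receptor gene, and Ptgir, the prostacyclin receptor gene, had 1 each, with means of 41.1, 34.7 and 34.6. Il4ra and Ccr8 had none among 9 and 3 regions open in Th2. With lists of equal length, 2 regions at Il1rl1, 1 at Areg and none at Il10 met the rule.

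Lists of other cell programmes held shares on both sides of the 6.38% over the genome. Of regions open in Th2, 2 of 56 (3.57%) at 20 Th1 genes were Th2-only and newly open, 1 each at Stat4 and Il18rap, and 1 of 34 (2.94%) at 10 housekeeping genes. At 14 naive T cell genes there were 8 of 124 (6.45%). Foxp1, a factor that holds T cells in the naive state, had 3 of these; chr6:99105839-99106411 was even, with 86.8 and 76.8 in Th2 knockout and 77.4 and 75.7 in Th2 wild type. The other 2 at Foxp1 were lower in both knockout libraries; chr6:99035600-99035935 had 24.0 and 23.5 in Th2 knockout and 72.3 and 61.2 in Th2 wild type. Lef1, which encodes a partner of beta-catenin, had 2. At 17 T cell identity genes there were 5 of 99 (5.05%), at 20 activation, STAT5 and cell cycle genes 6 of 112 (5.36%), at 9 regulatory T cell genes 3 of 43 (6.98%), at 10 Th17 genes 3 of 37 (8.11%) and at 8 follicular helper genes 0 of 29. Among 14 ETS family genes, 6 of 96 (6.25%) were newly open, 3 of them at Etv6 and 1 each at Ets2, Fli1 and Etv3, while Ets1 itself had none among 15. These shares rest on few regions.

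Genes that mark other cell types had few regions open in Th2, 8 to 24 a list. There was no Th2-only newly open region at 10 CD8 T and NK genes (15 regions open in Th2), 9 B cell genes (24), 10 myeloid genes (15) or 7 red cell genes (8). At 12 mast cell, basophil and eosinophil genes there were 2 of 11 (18.2%, beside 6.38% over the genome), at Hdc, which encodes the enzyme that makes histamine, and at Il18rap, which is also on the Th1 list. The Hdc region, chr2:126594955-126595349, had 49.9 and 40.4 in Th2 knockout and 36.2 and 60.1 in Th2 wild type, with overlapping genotypes. The starts of the mast cell and basophil genes Cpa3, Mcpt8, Fcer1a and Ms4a2 had no peak in any of the 12 libraries.

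Over the genome, 1916 of 21631 protein-coding genes (8.86%) had at least 1 Th2-only newly open region within the body or 20 kb on either side, and 1716 of the 2302 regions were counted there. Of these genes 1609 had 1, 241 had 2, 44 had 3 and 22 had 4 or more. Many of those with 4 or more are long genes, which hold more regions of any kind. Adamtsl3, a secreted matrix protein gene of 279 kb, had the most, 9 of its 13 regions open in Th2. Inpp4b, a phosphoinositide phosphatase gene of 792 kb, had 8 of 46, Enox1 7 of 11 and Sugct 7 of 20. Arhgap15, a gene for a GTPase-activating protein of Rac, had 6 of 25 and Akap13, a gene for an anchoring protein of protein kinase A, had 6 of 27. Rnf152, a ubiquitin ligase gene of only 80.1 kb, had 5 of 8, Mei4, a gene of meiotic recombination, 5 of 11, and the phosphodiesterase gene Pde11a 5 of 22. Mthfd1l, Myo9a, Lamc1, Tanc2, Frmpd4, Uvrag, Creb5, Prkg1 and Rbpj had 4 each. With lists of equal length, Adamtsl3 had 8, while Inpp4b had 3, Enox1 3, Sugct 2, Rnf152 1, and Frmpd4 and Lamc1 none.

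Of the 9 Adamtsl3 regions, 7 overlapped between genotypes, and the 2 strongest lay 91.3 and 69.5 kb from the start. The highest, chr7:82426989-82427489, had percentiles 89.6 and 87.7 in Th2 knockout and 85.1 and 90.9 in Th2 wild type. The next, chr7:82405198-82405804, had 86.8 and 50.4 in Th2 knockout and 83.3 and 72.4 in Th2 wild type. The region nearest the start, chr7:82339266-82339676, 3.57 kb from it, was the weakest, with 25.2 and 21.8 in Th2 knockout and 38.8 and 3.37 in Th2 wild type. The 2 regions without overlap were higher in both knockout libraries. At Rnf152 the regions ran from a mean of 19.4 to 64.5, and the one at chr1:105303921-105304452 had 69.5 and 72.8 in Th2 knockout and 34.1 and 55.2 in Th2 wild type.

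Newly open regions also occurred in stretches. With neighbours no more than 50 kb apart, 295 stretches of at least 2 regions held 691 (30.02%) of the 2302, 16 stretches had 4 or more and 10 had 5 or more. By the same measure 55.8% of the 6763 regions newly open in both Th1 and Th2 cells lay in stretches, with 11 in the longest, and 3.92% of the 332 newly open in Th1 alone; sets with more regions lie closer together.

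The longest stretch, chr9:81673406-81862401, ran 189 kb between Htr1b, a serotonin receptor gene 39.6 kb away, and Mei4, 1.27 kb away, and held 15 newly open regions and no protein-coding gene. It had 24 and 23 regions with a peak in Th2 knockout, 22 and 24 in Th2 wild type, 8 and 3 in Th1 knockout, 1 and 1 in Th1 wild type, and 0 in all 4 naive libraries. The naive libraries of both genotypes were empty there. Of the 26 regions in the stretch, though, 15 were chosen for having no Th1 and no wild-type naive peak. The newly open regions of the stretches below were chosen likewise. The Th1 knockout libraries had more regions with a peak than the Th1 wild-type ones, mostly in replicate 1. Both Th1 knockout lists were also longer than both Th1 wild-type lists, and the part of list length was not tested. The strongest region, chr9:81717080-81717856, had percentiles 84.5 and 67.7 in Th2 knockout and 87.7 and 92.4 in Th2 wild type, with both knockout values lower. The region next to it, chr9:81721661-81722124, had 79.6 and 70.0 in Th2 knockout and 30.2 and 27.5 in Th2 wild type, with both knockout values higher. Of the 15 regions, 2 were higher and 2 lower in both knockout libraries. With lists of equal length, 10 regions there met the rule.

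The next stretch, chr7:82329550-82496831, held the 9 regions of Adamtsl3 over 167 kb, and it too had no naive peak in any of the 4 libraries. Of its 12 regions open in Th2, 3 had a Th1 peak, and the Th1 libraries had 3 and 2 regions with a peak in knockout and 2 and 2 in wild type. The third, chr5:91028924-91124673, held 7 regions over 95.8 kb at Epgn and Ereg, genes of the EGF family of growth factors like their neighbour Areg. It had 11 and 10 regions with a peak in Th2 knockout, 11 and 10 in Th2 wild type, 4 and 3 in Th1 knockout, 2 and 2 in Th1 wild type and 0 in every naive library. Its highest, chr5:91028924-91029489, 1.41 kb from the Epgn start, had percentiles 66.2 and 71.3 in Th2 knockout and 56.3 and 71.8 in Th2 wild type, and the region 14.9 kb from the Areg start closes the stretch. With lists of equal length, 8 regions in the Adamtsl3 stretch and 5 in the Epgn stretch met the rule. The fourth, over Lamc1, and another, in Akap13, had 6 regions each among regions that naive cells also had. At Lamc1 there were 8 and 6 regions with a peak in naive knockout and 6 and 7 in naive wild type, and at Akap13 4 and 5 in naive knockout and 5 and 7 in naive wild type.

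**Figure D5:**
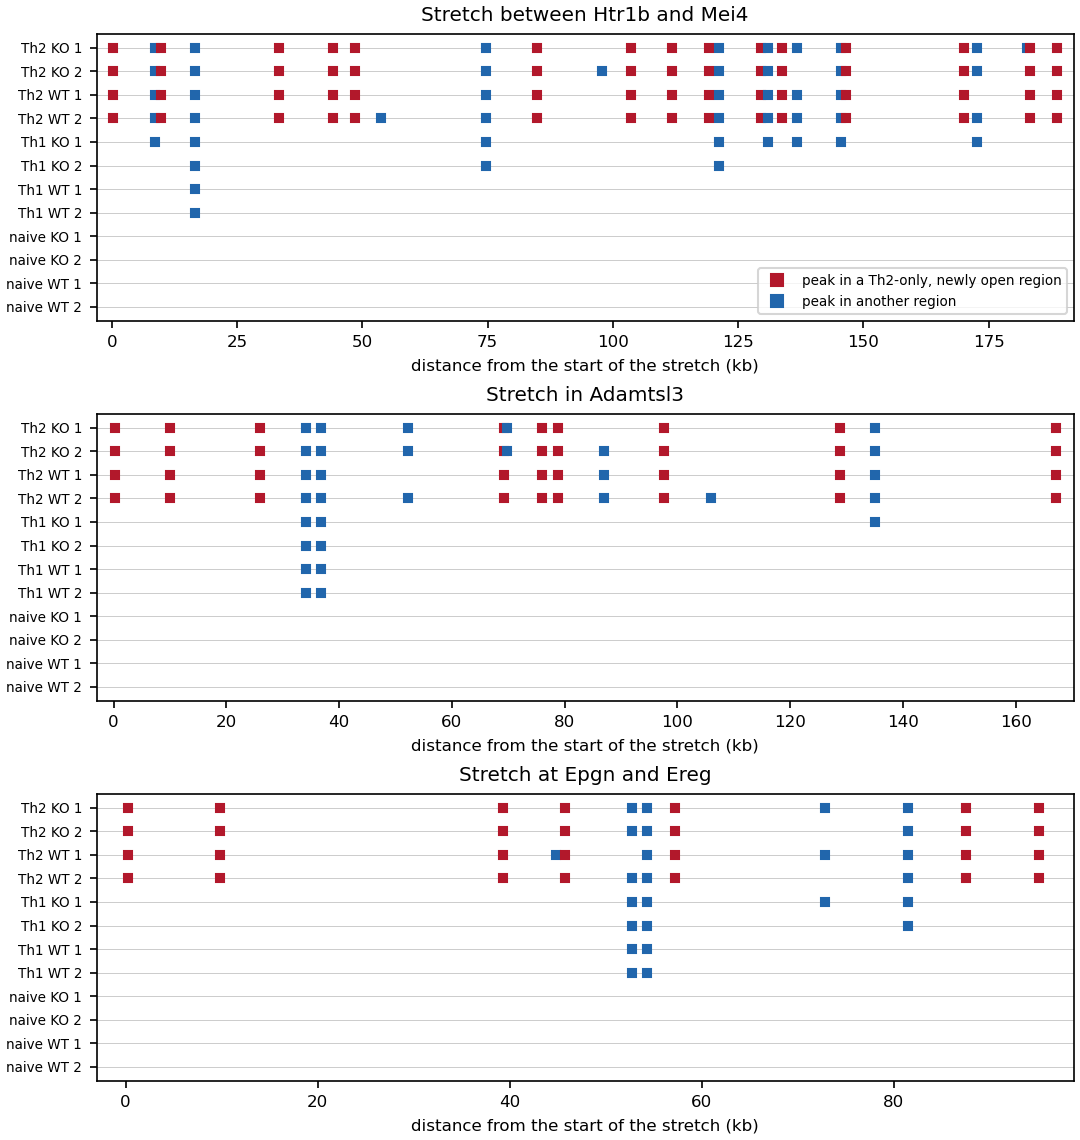
Peaks of each of the 12 libraries (rows) along the 3 longest stretches, by distance from the start of the stretch (x axis, kb). Red squares are peaks in Th2-only newly open regions, 15, 9 and 7 in number, and blue squares peaks in other regions. The 4 naive rows are empty in all 3, where the rule allowed no wild-type naive peak in the red regions.

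The highest-ranking regions lay in or far from genes of varied kinds. The highest, chr3:95297938-95298529 in the annexin gene Anxa9, had percentiles 96.8 and 97.6 in Th2 knockout and 96.3 and 88.1 in Th2 wild type, with fold enrichments of 7.54 and 6.91 in Th2 knockout and 7.07 and 5.91 in Th2 wild type. The next, chr9:84841058-84841837, lay 479 kb from the nearest protein-coding gene, Tent5a, with 98.3 and 96.4 in Th2 knockout and 90.6 and 89.6 in Th2 wild type. In both, the 2 knockout values were above the 2 wild-type values by a few points. The third, chr1:105548225-105549002 in Pign, a gene of GPI-anchor synthesis, had 94.7 and 85.7 in Th2 knockout and 91.7 and 94.6 in Th2 wild type. The fourth, chr2:76216863-76217400 in Pde11a, had 93.1 and 86.2 in Th2 knockout and 91.2 and 96.0 in Th2 wild type, and both overlapped between genotypes. The rest of the 10 highest were in Iqgap2, Cmtm4 and Patj and near Pom121l12, Dthd1 and Arl4a, with mean percentiles of 90.1 to 91.5. Of the 10, 4 had both knockout values above both wild-type values and 1 had them below.

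Motifs could be searched only in promoter windows, from 250 bases before to 50 after a start, since no genome sequence of the files' build was used here. Of the 32 windows touched by a newly open region, 14 (43.8%, 95% Wilson interval 28.2 to 60.7%) held a GATA motif, against 25.5% of 204 windows touched by regions newly open in both Th1 and Th2 cells, 16.0% of 8652 windows touched by regions open in all 12 libraries and 30.1% of all 26794 genes' windows. A STAT6 motif was in 6 windows (18.8%), against 6.37%, 5.17% and 7.08% of the same 3 sets. An AP-1 motif was in 5 windows (15.6%), against 17.7%, 3.06% and 5.22%. The ETS letters GGAAGT were in 31.3%, against 15.7%, 30.5% and 24.2%, and the T-box letters GGTGTGA in 3.13%, against 4.90%, 3.11% and 3.96%. RUNX letters TGTGGT were in 18.8%, against 18.6%, 11.8% and 16.8%, and NFAT letters GGAAAA in 25%, against 23.0%, 19.4% and 23.6%. The windows differed in base composition, with a median GC content of 50.3% for the newly open ones, against 57.8%, 62.0% and 52.7%, and the part of that in the shares was not tested. Chosen without both Th2 knockout libraries, 33.3% of 51 windows held a GATA motif and 15.7% a STAT6 motif. A window and a region may overlap only in part, the distal regions were not searched, and a match of letters does not show that a factor was bound.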

How the data were processed

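The data were ATAC-seq of CD4+ T cells (Th2, Th1 and naive), with 12 libraries in 6 groups of 2. Per the submitters' processing notes, BWA, Picard and MACS2 were the tools and GRCm38 the genome build, with versions not given in the sources used here. Per the labels' protocols, reads were 38 bp. Each deposited file was 1 library's peak list, called per library, with a score, a fold enrichment (ratio), the −log10 p-value and the −log10 q-value of each peak, per the layout of the deposited columns. These values are scaled within a library, so peaks were ranked within a list and never compared as raw values between lists. Depth is unknown. The least certain peaks had a q-value near 0.1.

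Peaks on chromosomes 1 to 19 and X were merged where they shared 1 bp, and a region took the highest percentile of a library's peaks in it. No test was run over regions, which are not replicates; Wilson intervals cover counting error only. Gene bodies, starts and promoter sequences were RefSeq's for GRCm38.p6, and a gene's regions lay in its body or within 20 kb. The planned motif search in the regions themselves needs a genome sequence and was replaced by one in 300-base promoter windows. Named were the 20 genes with most regions (some are not reported here), up to 4 genes of each of 17 lists, the 10 highest regions, the 5 longest stretches and the regions with both naive knockout peaks; the regions with the largest genotype differences, the regions over promoters and other list genes were chosen after their values were seen. The regions and lists were chosen with earlier results of these data known. The merging and the rule were tested on simulated peak lists. Python 3.11.15, pandas 2.3.3, numpy 2.4.6, scipy 1.17.1 and matplotlib 3.10.9 were used.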

Additional observations from a re-analysis of the deposited data

How the results depend on the processing

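Over 8 main results and 12 settings that each left out 1 library, 87 of 96 values stayed within 1.5 times the count or inside the share's 95% interval, and over the other settings 38 of 50 did. Leaving out 1 library gave 2302 to 3110 regions, the highest without Th1 knockout replicate 1, and 0.343 to 0.912% of them had a peak in all remaining naive knockout libraries; 0.912% is the share in naive knockout replicate 2 alone. It gave 2.04 to 2.43% within 1 kb of a start, 34.7 to 51.3% of windows with a GATA motif, 14.3 to 19.05% with a STAT6 motif and 1916 to 2412 genes. Shares of regions with the knockout libraries above ran from 19.3 to 37.8% and below from 14.7 to 33.3%. With every list cut to the shortest, 1144 regions and 983 genes were left. Requiring a −log10 q-value of at least 2 gave 2142 regions, which held 66.99% of the 2302. Trimmed peaks and merging over gaps of 100 bp kept 99.8% and 99.4% of them. Choosing in Th2 knockout alone gave 5220 regions and in Th2 wild type alone 6367, and leaving out both Th2 knockout libraries gave 3750 regions at 3013 genes; these were added after the data were seen, as was the comparison of regions of like strength. Within 2 kb of a start lay 4.19%, and 1036 genes had a region with no flank and 3037 with 50 kb. The middle 200 bases of the windows held a GATA motif in 28.1%, against 21.9% of all genes' windows. It was 17.6% of windows touched by regions newly open in both Th1 and Th2 cells, and 11.1% for regions open in all 12 libraries. With replicate numbers as a block, counting regions whose knockout value was higher in both same-numbered pairs, the shares were 29.4% above and 23.0% below, against 27.2% and 23.5% for all regions open in Th2. Same-numbered Th2 libraries did not deviate together (r = 0.000454 over 36107 regions). This cannot show whether they shared an animal, a culture or a day. No direction reversed. The unknown depth limits every absent peak.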
